A study of Mus musculus with 6 samples.

Results

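The genes described here are the 3 TGF-beta ligand genes Tgfb1, Tgfb2 and Tgfb3, the receptor genes Tgfbr1, Tgfbr2 and Tgfbr3, the pathway targets Ccn2 and Smad7, and the transcription factor gene Sox4. They were taken as every probe set that the annotation of the array platform gives to 1 of these 9 symbols, which found all 9 genes, with 11 probe sets, among 8251 named genes and 12422 probe sets. Tgfb3 and Sox4 had 2 probe sets each. Sox4 was picked for its high signal on 1 of the arrays without doxycycline, so its values in comparisons with that group are given as a description, with no test. The other 8 genes were listed for their place in the pathway, with earlier results of these data known.

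The cells were a clone of NIH3T3, an immortalised mouse fibroblast line. Every group carried the oncogenes c-Myc and Ha-Ras behind a Tet-off promoter, which doxycycline keeps silent. A fusion of IRF-1 with the hormone-binding region of human estrogen receptor was made constitutively in all of them, and estradiol activates it. The estradiol group grew without doxycycline and was given estradiol over 48 h (1 mM, the dose in the labels). The withdrawal group grew without doxycycline and without estradiol. The doxycycline group received 2 µg/ml of doxycycline, and estradiol stands in the title of its replicate 2 but not among its listed treatments. Each group had 2 one-colour Affymetrix arrays, with RNA from an RNeasy kit in replicate 1 and from TRIzol in replicate 2. Nothing in the labels tells whether replicates came from separate cultures, and p-values here cover only how far these arrays differ, a spread that may be technical. The cells of 1 clone limit what the groups stand for, and an effect of doxycycline or of estradiol itself cannot be told apart from one of the oncogenes or of IRF-1. The estradiol and doxycycline groups differ in both treatments at once, so their comparison cannot assign a difference to either.

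TGF-beta ligands are secreted in a latent form, bound to the matrix, and are released by proteases and integrins. The free ligand brings the type II receptor (Tgfbr2) together with the type I receptor (Tgfbr1), which phosphorylates Smad2 and Smad3, and betaglycan (Tgfbr3) presents ligand to them. In fibroblasts the pathway is known for raising matrix, contractile and wound-response genes, Ccn2 among them, and for switching on its own inhibitor Smad7.

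The arrays did not sort by group alone. The arrays labelled estradiol replicate 1 and withdrawal replicate 1 differed at least 2-fold in 16 of 7453 tested probe sets, while the 2 withdrawal arrays differed from each other in 920, the 2 estradiol arrays in 250 and the 2 doxycycline arrays in 283. Set against the array labelled withdrawal replicate 2, estradiol replicate 1 differed in 937, estradiol replicate 2 in 649, doxycycline replicate 1 in 324 and doxycycline replicate 2 in 582. Set against withdrawal replicate 1, the counts were 242 for estradiol replicate 2, 488 for doxycycline replicate 1 and 658 for doxycycline replicate 2. The 2 withdrawal arrays thus stood nearer to arrays of other groups than to each other, and a label may be wrong. The labels were used as given, and this was not tested, so each value with the withdrawal or estradiol group holds only as far as its labels do. For tested members, results with the withdrawal group are given per replicate number and without its replicate 2, and for other genes per replicate number. Of 10 fibroblast markers, all on the array, 8 had a signal over 100 on at least 1 array. Collagen I gene Col1a1 reached signals of 4211 to 6871 on one of its probe sets, whereas those for Vim and Fap stayed at 5.9 to 40.7 and 1 to 13.2. The summed signal of the fibroblast markers was 21286 and 16539 with estradiol, 21305 and 25842 after withdrawal, and 28655 and 27186 with doxycycline. No marker of these lists was at 0 on every array. The leukocyte marker Cd14 had signals of 257.4 to 379.1, Cd68 reached 70.1 to 132.1 on its brighter probe set, and Ptprc stayed at or below 10.5. The epithelial marker Cdh1 had signals of 76.6 to 171.6, and Epcam stayed at or below 8.1. The summed signals were 391.5 to 488.4 for leukocyte, 163.7 to 236.9 for epithelial and 61.9 to 103 for endothelial markers.

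All values below are MAS5 signals, the linear brightness of a probe set, on a common scale as deposited. Fold changes are differences of log2(signal + 32), which understate the change of dim probe sets. Probe sets among the dimmest 40% by mean, under a signal of about 29.0, were not tested. Of the 11 probe sets 8 were tested, covering 7 genes, and those of Tgfb2 and Tgfbr2 and the dimmer Tgfb3 probe set were not. Limma passed 0 of 7453 probe sets at an adjusted p of 0.05 in each comparison, or 0% of those tested. At an unadjusted p under 0.05 there were 1041 (14%) for estradiol against doxycycline, 52 (0.698%) for estradiol against withdrawal and 326 (4.37%) for withdrawal against doxycycline. Of the members given a p, 3 of 8 were under that unadjusted limit for estradiol against doxycycline. These were the brighter Tgfb3 probe set, Tgfbr3 and the first Sox4 probe set. Both Sox4 probe sets are among the 8, and their spread includes the array Sox4 was chosen on. Their p is thus not free of that choice, and the 3 of 8 only describes. The count, without Sox4, was 1 of 6 for estradiol against withdrawal and 1 of 6 for withdrawal against doxycycline. All those under the limit were lower. Over all tested probe sets the lower ones made up 5.66%, 0.362% and 2.31% in the same order, and the higher ones 8.31%, 0.335% and 2.07%. No member passed in any comparison, and the words higher and lower below describe signals. In bulk RNA, fewer cells that express a gene and less of its RNA per cell cannot be told apart.

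**Figure D1:**
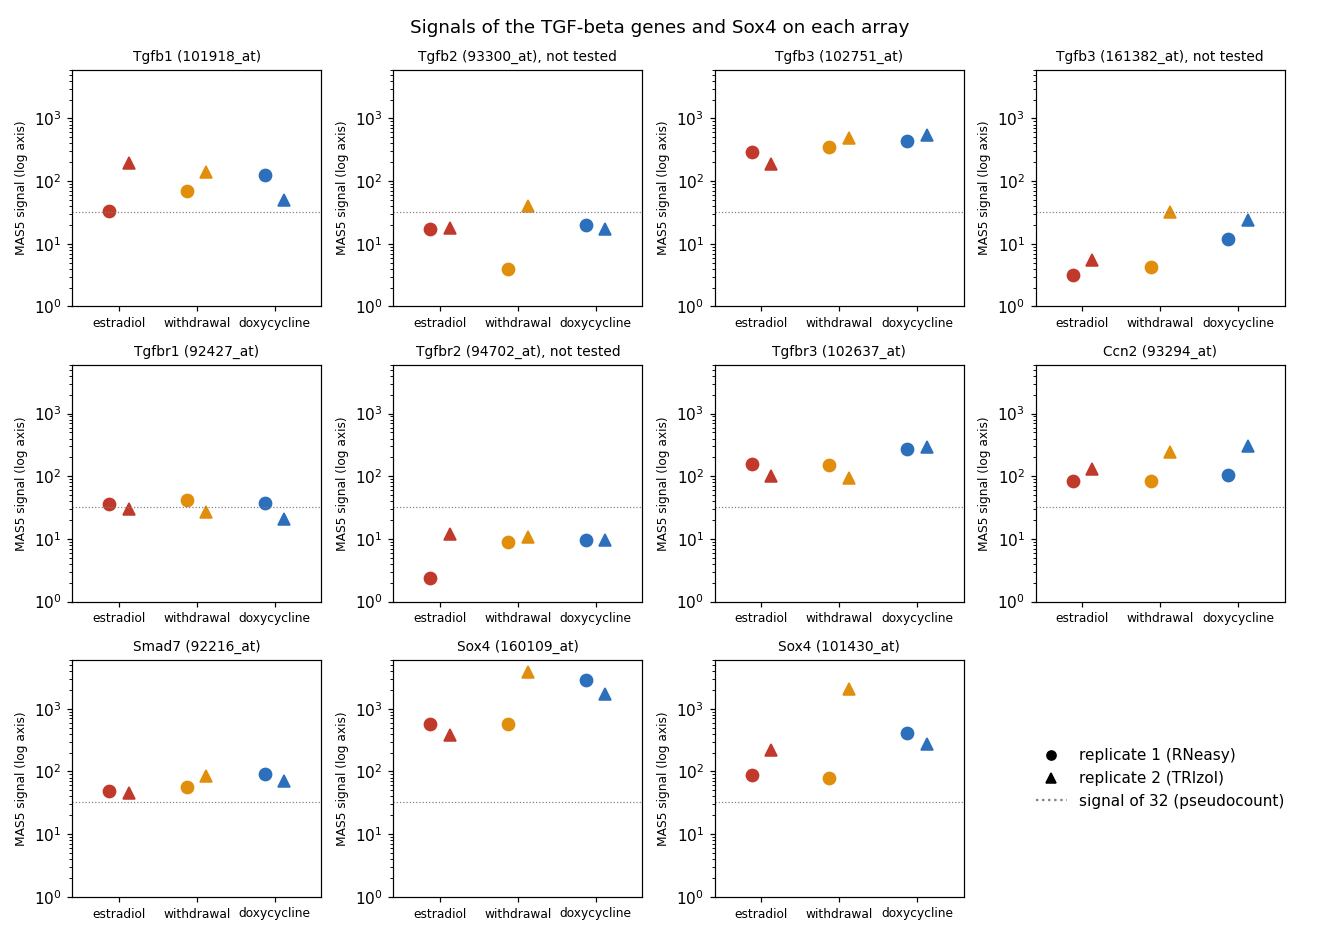
MAS5 signal (log axis) of the 11 probe sets on the 6 arrays, by group, with circles for replicate 1 and triangles for replicate 2. The 2 Sox4 probe sets reach 3872 and 2088 on the array labelled withdrawal replicate 2, and both doxycycline arrays of Tgfbr3 lie above the other 4.

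Promoter sequences were found in the RefSeq table (build GRCm38.p6) for 5 of the 9 genes. Those of Sox4, which had the widest range of signals among the tested probe sets, and of Tgfb1, the tested ligand with an entry, are shown so that motif letters can be set beside their signals. Each covers the 250 bases before the annotated start. Capitals mark CAGAC, a core of Smad binding, and GGAATG, a core of TEAD binding, or their reverse complements GTCTG and CATTCC.
Sox4 (chr13:28953700-28953949, minus strand): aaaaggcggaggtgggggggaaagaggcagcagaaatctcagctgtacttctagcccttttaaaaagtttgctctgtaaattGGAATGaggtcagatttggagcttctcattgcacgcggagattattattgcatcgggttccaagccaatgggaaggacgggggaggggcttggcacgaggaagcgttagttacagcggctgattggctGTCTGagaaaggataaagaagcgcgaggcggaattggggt
Tgfb1 (chr7:25686752-25687001, plus strand): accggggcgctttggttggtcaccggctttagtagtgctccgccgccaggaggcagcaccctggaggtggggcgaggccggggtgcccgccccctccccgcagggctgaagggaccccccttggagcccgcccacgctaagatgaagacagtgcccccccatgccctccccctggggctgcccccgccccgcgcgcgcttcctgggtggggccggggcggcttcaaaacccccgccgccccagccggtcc
The Sox4 window held each motif 1 time, on either strand, and the Tgfb1 window held neither. Of the windows not shown, Tgfb2 held the Smad letters 2 times, Tgfbr2 1 time and 1 Tgfbr1 window 1 time. The other Tgfbr1 window did not hold them, and no window but that of Sox4 held the TEAD letters. Among 32851 promoter windows of the same length, 42.2% held the Smad letters and 12.6% the TEAD letters. A match to the Smad letters is thus common, and a match to either motif describes letters alone. Guanine and cytosine made up 50.8% of the Sox4 window and 75.2% of the Tgfb1 window.

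Among the ligands, Tgfb3 was lower in the estradiol group than in either other group, while Tgfb1 followed neither group nor replicate number and Tgfb2 stayed dim. Tgfb3, whose product is best known from palate and lung development, had signals of 291.8 and 189.4 with estradiol, 352.9 and 496.2 after withdrawal and 431.1 and 545.2 with doxycycline on its brighter probe set. Both estradiol arrays lay below all 4 others. Against doxycycline the log2 fold change was -0.95 (SE 0.32, 95% interval -1.68 to -0.22, limma adjusted p = 0.286). Replicate 1 gave -0.52 and replicate 2 gave -1.38. Both replicate numbers thus went the same way and the arrays did not overlap, but the difference did not pass over all probe sets.

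Against withdrawal, Tgfb3 stood at -0.75 (SE 0.32, limma adjusted p = 1.00). Replicate 1 gave -0.25 and replicate 2 gave -1.25. This value was -0.52 when withdrawal replicate 2 was left out. Withdrawal against doxycycline gave -0.20 (SE 0.32, limma adjusted p = 0.955; -0.27 and -0.13 for the replicate numbers), with overlapping arrays, or -0.43 without withdrawal replicate 2. The other Tgfb3 probe set was dim, at 3.2 and 5.6 with estradiol, 4.2 and 31.6 after withdrawal, and 12 and 24.2 with doxycycline. There, too, both estradiol arrays lay below both doxycycline arrays, but withdrawal replicate 1 lay among the estradiol values.

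Tgfb1, the ligand most tied to fibrosis, had signals of 33.2 and 192.6 with estradiol, 70.7 and 137.8 after withdrawal and 123.2 and 50.2 with doxycycline. The 2 estradiol arrays were its lowest and its highest, so the groups overlapped in every comparison. Estradiol against doxycycline gave a log2 fold change of 0.10 (95% interval -1.22 to 1.42, limma adjusted p = 0.962), which was -1.25 in replicate 1 and 1.45 in replicate 2. Such an interval holds differences of more than 2-fold in both directions, so these arrays do not settle whether Tgfb1 differed. Estradiol against withdrawal gave -0.13 (-0.66 in replicate 1 and 0.40 in replicate 2), and 0.24 without withdrawal replicate 2. For withdrawal against doxycycline it was 0.23 (-0.60 in replicate 1 and 1.05 in replicate 2), and -0.14 without withdrawal replicate 2. Tgfb2, the third ligand, had signals of 17.4 and 18 with estradiol, 4 and 40.8 after withdrawal and 19.7 and 17 with doxycycline, and was not tested. Its highest and its lowest value both came from the withdrawal group.

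Among the receptors, betaglycan stood apart with its doxycycline arrays above all others, and the signalling receptors were dim. Tgfbr3 had signals of 157.2 and 100.6 with estradiol, 153.8 and 94.7 after withdrawal, and 268.1 and 298.3 with doxycycline. The doxycycline mean of 283 was 2.20 times that of the estradiol group and 2.28 times that of the withdrawal group. Tgfbr3 was the sole member whose 2 withdrawal arrays lay on the same side of both doxycycline arrays. The array labelled withdrawal replicate 2 was the lowest of all 6 for this gene.

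Withdrawal against doxycycline gave -1.04 for Tgfbr3 (SE 0.31, 95% interval -1.74 to -0.34, limma adjusted p = 0.925), or -0.69 for replicate 1 and -1.38 for replicate 2. Estradiol against doxycycline gave -0.99 (SE 0.31, limma adjusted p = 0.267), with -0.67 and -1.32. These comparisons share the doxycycline arrays, so their likeness is no second observation. The value for withdrawal was -0.76 when its replicate 2 was left out. Estradiol against withdrawal gave 0.05 (95% interval -0.66 to 0.75, limma adjusted p = 1.00), with 0.03 and 0.07, and the sign turned to -0.23 without withdrawal replicate 2.

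Tgfbr1, the type I receptor kinase, had signals of 36.1 and 29.9 with estradiol, 41.4 and 27.3 after withdrawal and 38.1 and 20.6 with doxycycline. Replicate 2 was below replicate 1 in all 3 groups, and the groups overlapped. The log2 fold changes lay between -0.02 for estradiol against withdrawal and 0.12 for withdrawal against doxycycline, where the 95% interval ran from -0.49 to 0.73. Estradiol against withdrawal was -0.11 for replicate 1 and 0.06 for replicate 2, and -0.18 without withdrawal replicate 2. Withdrawal against doxycycline was 0.07 and 0.17 for the replicate numbers, and 0.27 without withdrawal replicate 2. Tgfbr2, the type II receptor kinase, had signals of 2.4 and 12.2 with estradiol, 9 and 10.8 after withdrawal and 9.7 and 9.6 with doxycycline. It lay within the dimmest 25.2% of probe sets on every array, and its groups overlapped.

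Both pathway targets had their lowest means with estradiol, but Ccn2 followed the replicate number as much as the group. Ccn2, the secreted matricellular protein once called connective tissue growth factor, had signals of 85.3 and 132.7 with estradiol, 85.3 and 240.9 after withdrawal and 105.6 and 303.1 with doxycycline. In all 3 groups the replicate 2 array, from TRIzol, was above the replicate 1 array. Whether the extraction method had a part in this was not tested. Estradiol against doxycycline gave -0.63 (95% interval -1.80 to 0.55, limma adjusted p = 0.618), or -0.23 for replicate 1 and -1.02 for replicate 2. Without doxycycline replicate 2 the value was 0.015. That sets both estradiol arrays against replicate 1 alone, so the step between the replicate numbers enters it. The same holds for each value, above or below, where an array of a compared group was left out. Estradiol against withdrawal gave -0.36 (-0.73 in replicate 2, with equal signals in replicate 1), which turned to 0.24 without withdrawal replicate 2. Withdrawal against doxycycline gave -0.26 (-0.23 and -0.30), which was -0.87 without withdrawal replicate 2 and 0.35 without withdrawal replicate 1.

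Smad7, the inhibitory Smad that blocks the activated type I receptor, had signals of 48.7 and 45.2 with estradiol, 56.1 and 84 after withdrawal and 91.8 and 69.6 with doxycycline. Both estradiol arrays lay below the other 4, by a small margin under withdrawal replicate 1. Estradiol against doxycycline gave -0.51 (SE 0.26, 95% interval -1.11 to 0.09, limma adjusted p = 0.417), or -0.62 for replicate 1 and -0.40 for replicate 2. Estradiol against withdrawal gave -0.36 (SE 0.26, limma adjusted p = 1.00), with -0.13 and -0.59, and -0.16 without withdrawal replicate 2. Withdrawal against doxycycline gave -0.15 (-0.49 and 0.19), so the replicate numbers went opposite ways, and -0.35 without withdrawal replicate 2.

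Sox4 encodes an HMG-box transcription factor that TGF-beta is known to induce in epithelial cells and fibroblasts. Its first probe set read 581.4 and 388.3 with estradiol, 568.7 and 3872 after withdrawal and 2902 and 1698 with doxycycline. The second probe set had 88 and 221.1 with estradiol, 77.4 and 2088 after withdrawal and 412.4 and 269.5 with doxycycline. On both, the array labelled withdrawal replicate 2 was the highest and the other withdrawal array lay between the estradiol arrays on the first probe set and below both on the second. The second probe set spanned 27.0-fold from its lowest to its highest array and the first 9.97-fold.

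The value on withdrawal replicate 2 is the one Sox4 was chosen for. As a description, withdrawal minus doxycycline was -2.29 in replicate 1 and 1.17 in replicate 2 for the first probe set, and -2.02 and 2.81 for the second. Estradiol minus withdrawal was 0.03 in replicate 1 and -3.22 in replicate 2 for the first, and 0.13 and -3.07 for the second. The means over both replicate numbers thus join unlike values. Without withdrawal replicate 2, withdrawal minus doxycycline was -1.91 on the first probe set and -1.74 on the second, and without withdrawal replicate 1 it was 0.79 and 2.53. With withdrawal replicate 2 left out, estradiol minus withdrawal was -0.24 and 0.67. The probe sets gave like differences within replicate 1, but in replicate 2 their differences from doxycycline were unequal.

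The comparison of estradiol with doxycycline does not use the withdrawal arrays for its difference, and there Sox4 was lower with estradiol on both probe sets. Its spread does use them, with the value Sox4 was chosen for. The array labelled withdrawal replicate 2 differed at least 2-fold from the doxycycline arrays in 324 and 582 probe sets. From the estradiol arrays it differed in 937 and 649. This comparison is thus not free of the choice of Sox4. On the first probe set the mean signal was 485 ± 137 with estradiol and 2300 ± 851 with doxycycline (SD, n = 2 each), 4.74 times higher with doxycycline. The log2 fold change was -2.15 (SE 0.75, 95% interval -3.87 to -0.43), with -2.26 in replicate 1 and -2.04 in replicate 2. Over all 6 arrays it did not pass (limma adjusted p = 0.295), since the shared spread includes the gap between the 2 withdrawal arrays. In a fit on the estradiol and doxycycline arrays alone, chosen after the data were seen, the SE was 0.33 and the limma adjusted p = 0.0286, where 132 of 7453 probe sets (1.77%) passed, 44 of them lower (0.59%). Leaving out withdrawal replicate 1 alone gave a limma adjusted p of 0.0287, where 1.76% of all probe sets passed and 0.577% were lower. Leaving out withdrawal replicate 2 gave 0.0281, where 1.78% passed. Leaving out any 1 of the estradiol or doxycycline arrays gave 0.442 to 0.909.

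The second probe set gave a log2 fold change of -1.07 for estradiol against doxycycline (SE 1.12, limma adjusted p = 0.701). It was -1.89 in replicate 1 and -0.25 in replicate 2, and did not pass in the fit without withdrawal arrays either (limma adjusted p = 0.159). The 2 probe sets shared the direction and differed in the size in replicate 2. The fibroblast marker sum given above was also lower with estradiol than with doxycycline, in both replicate numbers. So were all 8 tested genes of that list by their brightest probe set (median -0.54), beside 49.6% of all tested probe sets. None of them passed. Dimmer probe sets of these genes were not counted and did not all go that way. That of Col1a1 was higher with estradiol (916.2 and 1123.5) than with doxycycline (871.8 and 806.5). That of Col1a2 overlapped, while those of Col3a1 were lower. The part of the marker shift in the values of Sox4, Tgfb3, Tgfbr3 and Smad7 was not tested.

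**Figure D2:**
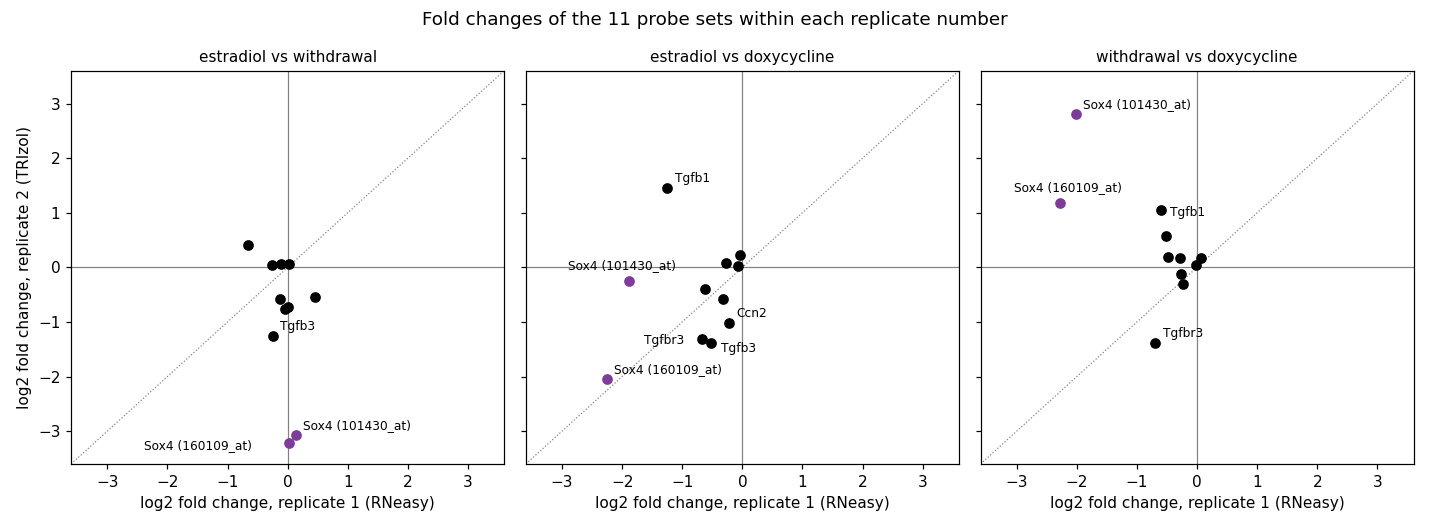
Log2 fold change of each of the 11 probe sets in replicate 1 (x axis) and replicate 2 (y axis) for the 3 comparisons, on the log2(signal + 32) scale, with Sox4 in purple, names beside probe sets past 0.95 on either axis and a dotted line where both are equal. Sox4 lies at -3.22 and -3.07 in replicate 2 of estradiol against withdrawal but near 0 in replicate 1, and for withdrawal against doxycycline it has opposite signs in the 2 numbers.

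Counted over all 11 probe sets, both estradiol arrays lay below both doxycycline arrays in 6 (both of Tgfb3, both of Sox4, Tgfbr3 and Smad7) and above them in 0. Of all tested probe sets, 24.7% lay below and 27% above in that comparison. The 6 include the untested dimmer Tgfb3 probe set and both of Sox4, which was chosen for its signal. Tested and not so chosen were the brighter Tgfb3 probe set, Tgfbr3 and Smad7 alone. For estradiol against withdrawal, 2 of the 11 lay below without overlap (the brighter Tgfb3 probe set and Smad7), beside 10.2% of all tested probe sets. For withdrawal against doxycycline it was Tgfbr3 alone, beside 15%. The median log2 fold change over the 11 was -0.51 for estradiol against doxycycline, -0.36 for estradiol against withdrawal and -0.05 for withdrawal against doxycycline, where all tested probe sets had 0.00, 0.01 and 0.01. The Sox4 values against withdrawal follow from the array Sox4 was chosen on. Over the other 9 probe sets the medians were -0.45, -0.13 and -0.05 in the same order. Without withdrawal replicate 2 the median over these 9 was -0.07 for estradiol against withdrawal and -0.43 for withdrawal against doxycycline. These 9 include the untested dim probe sets of Tgfb2, Tgfbr2 and Tgfb3, while the shares given next cover tested probe sets alone. The log2 fold change was below 0 in 7 of the 9 for estradiol against doxycycline, beside 49.6% of all tested probe sets. The 7 count all the untested ones, with Tgfb2 at -0.02 and Tgfbr2 at -0.10. For estradiol against withdrawal the log2 fold change was below 0 in 8 of the 9, beside 49%, and in 5 of the 9 without withdrawal replicate 2. The 8 also count all the untested ones, with Tgfb2 at -0.04, and Tgfbr1 at -0.02. For withdrawal against doxycycline the log2 fold change was below 0 in 5 of the 9, beside 48.2%, and in 8 of the 9 without withdrawal replicate 2. Both replicate numbers had the same sign in 7, 5 and 4 of the 11, where the 5 count Ccn2 although its replicate 1 signals were equal. No share over all tested probe sets stands beside these counts, so they only describe signals.

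**Figure D3:**
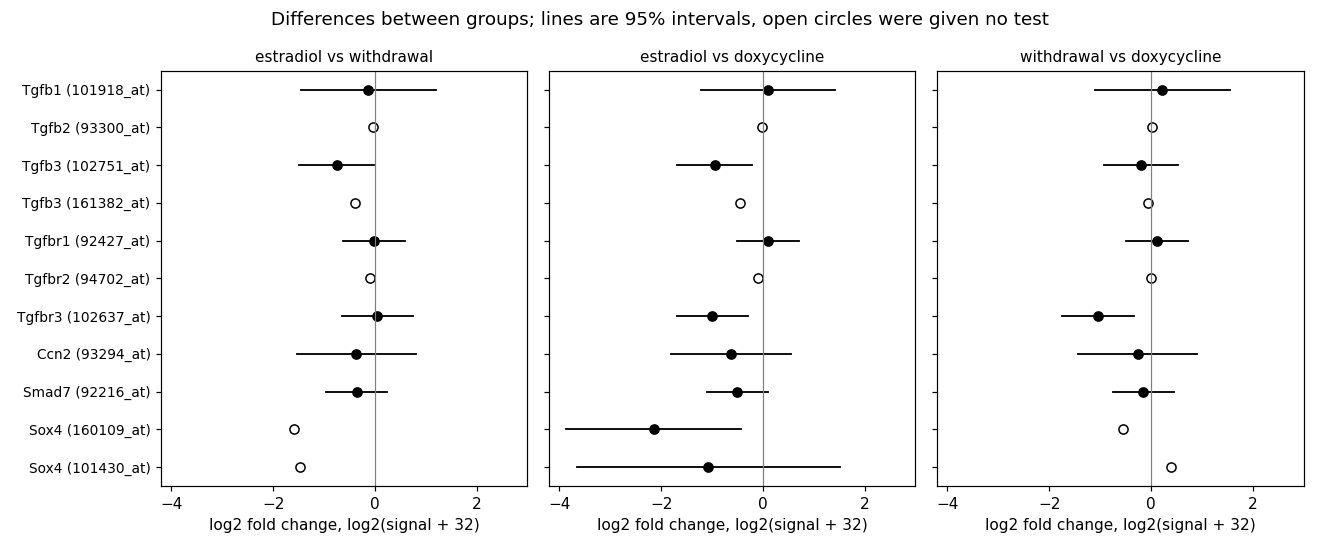
Log2 fold change, on the log2(signal + 32) scale, of the 11 probe sets in the 3 comparisons. Filled circles have a 95% interval from the limma fit, and open circles were not tested, because they were dim or, for Sox4, because the comparison holds the arrays it was chosen on. The intervals for estradiol against doxycycline lie below 0 for Tgfb3, Tgfbr3 and the first Sox4 probe set before any adjustment.

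The other genes of the pathway were taken from 7 lists, with the brightest tested probe set of each gene. Of any list, 0 genes passed in any comparison. For estradiol against doxycycline 49.6% of all tested probe sets were below 0, for estradiol against withdrawal 49% and for withdrawal against doxycycline 48.2%. Lists overlap, with target genes Col1a1, Col1a2 and Col3a1 also fibroblast markers and Ccn1 in both the target and CCN lists. Their counts are thus not separate observations. The 10 tested genes of TGF-beta storage and activation were all lower with estradiol than with doxycycline (median -0.44, beside 0.00 over all tested probe sets), and the median was -0.37 for replicate 1 and -0.36 for replicate 2. Mmp14, a membrane-bound metalloproteinase that can release latent TGF-beta, read 1147 and 776 on the estradiol arrays and 3654 and 3082 on the doxycycline arrays (-1.80 on the log2 scale, SE 0.45, limma adjusted p = 0.255). Dcn, decorin, a proteoglycan that binds TGF-beta, had 302.5 and 64.5 on the estradiol arrays and 1137 and 560.2 on the doxycycline arrays (-2.21, SE 0.62). For both genes the estradiol arrays lay below the doxycycline arrays without overlap. Bgn, the related biglycan, stood at -0.54 (SE 0.28). Estradiol against withdrawal gave Dcn 0.05 in replicate 1 and -2.80 in replicate 2, so that difference lay in replicate 2. Mmp14 behaved alike, at -0.01 and -1.92, and Ltbp2, a latent TGF-beta binding protein, stood at -0.32 and -2.07. Without withdrawal replicate 2 the list's median was -0.11 in place of -0.29. For withdrawal against doxycycline 8 of the 10 were lower (median -0.23), and 9 of the 10 without withdrawal replicate 2 (median -0.31).

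Reported TGF-beta target genes were lower with estradiol than with doxycycline in 22 of 26, beside 49.6% of all tested probe sets. Their median was -0.53, or -0.59 for replicate 1 and -0.51 for replicate 2. The list does not separate induced from repressed targets, so its count is no measure of pathway activity. It also holds Myc (-0.50), and c-Myc is an oncogene that the cells carry. Dimmer probe sets were not counted here either, and that of Col1a1 was higher with estradiol. Postn, the matrix protein periostin, had 32.9 and 3 on the estradiol arrays and 380.9 and 59.9 on the doxycycline arrays (-2.03, SE 0.64, limma adjusted p = 0.273). Timp3, a matrix-bound metalloproteinase inhibitor, had 355.6 and 295 on the estradiol arrays and 1108 and 810.8 on the doxycycline arrays (-1.46, SE 0.40, limma adjusted p = 0.255). Plaur, the urokinase receptor, went the other way, with 114.9 and 113.8 on the estradiol arrays and 26.8 and 44.4 on the doxycycline arrays (1.13, SE 0.25, limma adjusted p = 0.255). Its withdrawal arrays, at 72.5 and 65.2, lay between the 2 groups without overlap with either. Withdrawal against doxycycline gave 0.59 for Plaur (0.83 in replicate 1 and 0.35 in replicate 2) and -0.67 for the angiogenic factor Vegfa (-0.40 and -0.94).

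For estradiol against withdrawal the target list had a median of -0.43, which was 0.02 in replicate 1 and -0.87 in replicate 2, and -0.03 without withdrawal replicate 2. The matrix glycoprotein Tnc and the collagen cross-linking enzyme Lox stood at -0.01 and -0.04 in replicate 1 and at -2.44 and -2.30 in replicate 2. For withdrawal against doxycycline the median was -0.26, where replicate 1 gave -0.67 and replicate 2 gave 0.21. It was -0.57 with withdrawal replicate 2 left out and 0.14 with replicate 1 left out. The direction of the target list in that comparison thus turned with the array left out.

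Smads and their regulators were closer to 0, with 7 of 11 higher and 4 lower for estradiol against doxycycline (median 0.13, or -0.05 for replicate 1 and 0.28 for replicate 2). Fkbp1a, the immunophilin that holds the type I receptor inactive, had 866.9 and 1190 on the estradiol arrays and 573.6 and 484.7 on the doxycycline arrays (0.91, SE 0.30, limma adjusted p = 0.282). Strap, which binds Smad7 at the receptor, stood at 0.46 (SE 0.28) and the co-repressor Tgif1 at -0.36 (SE 0.34). Smad1, a Smad of the BMP branch, had 146 and 507.2 after withdrawal against 189.7 and 148.1 with doxycycline, so its 2 replicate numbers went opposite ways. For withdrawal against doxycycline 10 of the 11 were higher (median 0.17), but 3 of 11 without withdrawal replicate 2 (median -0.17).

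In the activin and BMP branch, 6 of 7 tested genes of the ligand and antagonist list were lower with estradiol than with doxycycline. The median was -0.36, or -0.12 for replicate 1 and -0.70 for replicate 2. That list also counts Bmp1, which is neither a ligand nor an antagonist. Bmp1, a procollagen protease, had 164.7 and 158.2 on the estradiol arrays and 330 and 269.4 on the doxycycline arrays (-0.77, SE 0.28, limma adjusted p = 0.301). Fstl1, a secreted follistatin-like glycoprotein, was lower with estradiol than after withdrawal, at -1.05, with -0.12 in replicate 1 and -1.99 in replicate 2. Of 7 tested activin and BMP receptor genes 5 were lower with estradiol than with doxycycline, with a median of -0.11. Acvr2a, a type II activin receptor, had 42.3 and 49.7 on the estradiol arrays and 22.1 and 37.9 on the doxycycline arrays, at 0.34 (SE 0.26).

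Relatives of Ccn2 and Sox4 did not share 1 direction. Among the 3 tested CCN genes, Ccn4 had 143.9 and 155.8 on the estradiol arrays and 116.3 and 61.8 on the doxycycline arrays (0.62, SE 0.29, limma adjusted p = 0.376), while Ccn1 stood at -0.50 (SE 0.34) and Ccn5 at -0.48 (SE 0.30). Of 12 other Sox genes on the array 4 were tested. Sox15 stood at 0.34 (SE 0.24), Sox13 at 0.10 (SE 0.25) and Sox10 at -0.47 (SE 0.29) for estradiol against doxycycline, beside -2.15 and -1.07 for the Sox4 probe sets. On withdrawal replicate 1 and 2, Sox10 had signals of 37.4 and 78.3, Sox13 had 205.7 and 194.3, and Sox15 had 78.3 and 61.9. A wide gap between these arrays was not particular to Sox4. Among the target genes, and chosen after their values were seen, the smooth muscle actin gene Acta2 had 109.8 and 842.7 on them, and Id2, an inhibitor of bHLH factors, had 26.2 and 484.5.

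**Figure D4:**
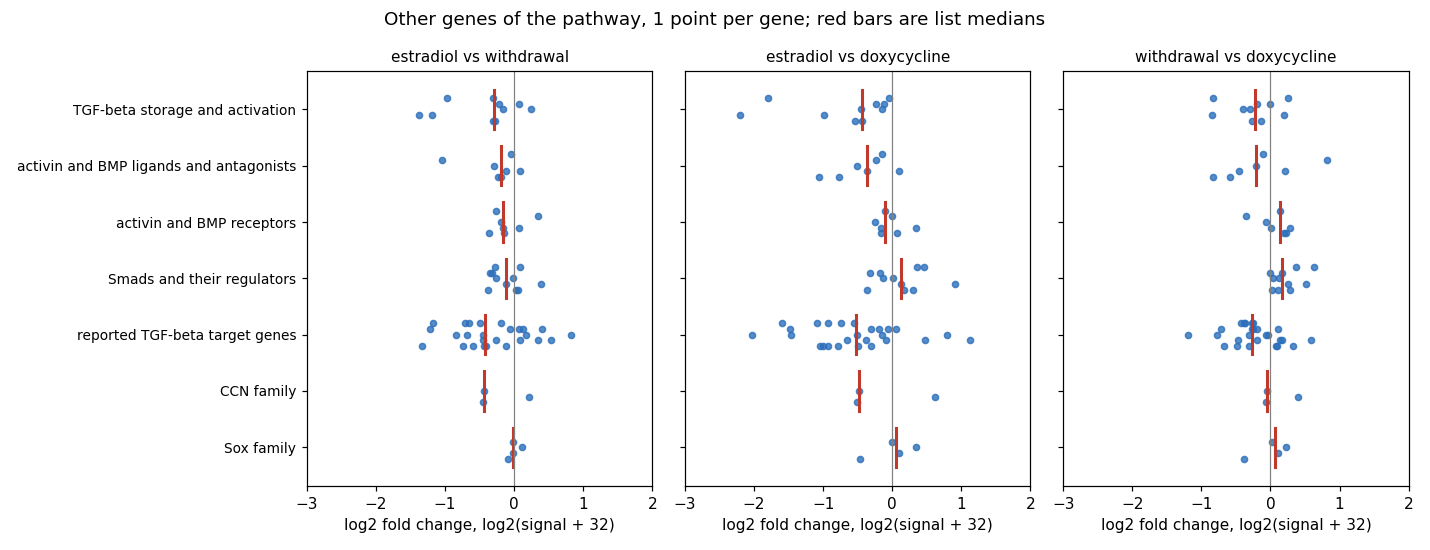
Log2 fold change, on the log2(signal + 32) scale, of each tested gene of 7 pathway lists (points) with the list medians (red bars) in the 3 comparisons. For estradiol against doxycycline the medians of the storage list and the target list lie at -0.44 and -0.53, and that of the Smads at 0.13.

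The genes whose log2 signals ran most like each member over the 6 arrays were sought among 5661 others, where some high correlation is to be found for any gene, so these are descriptions. For the first Sox4 probe set they were Idua (r = 0.996), a lysosomal iduronidase, Vcl (r = 0.994), the focal adhesion protein vinculin, and Zeb1 (r = 0.993), a zinc finger repressor. Vcl had signals of 537.1 and 447.8 with estradiol, 521.7 and 1377 after withdrawal and 1039 and 856.8 with doxycycline, so it too was highest on withdrawal replicate 2. For Tgfbr3 they were the endoplasmic reticulum chaperone Pdia4 (r = 0.988), the prostaglandin synthase Ptgds (r = 0.987) and the TEAD factor Tead4 (r = 0.986). Pdia4 had 208.4 and 157.4 with estradiol, 232.2 and 159.6 after withdrawal, and 401 and 401.3 with doxycycline. For Smad7 they were the kinase subunit Prkacb (r = 0.993), Kctd10 (r = 0.987) and the calponin Cnn3 (r = 0.986). Tgfb3 ran most like Sumf1 (r = 0.994) and Aldh3a2 (r = 0.983). Ccn2 ran most like Mbd4 (r = 0.992) and Snx10 (r = 0.991), which share its step between the replicate numbers. Snx10 had 76.3 and 103.3 with estradiol, 67.7 and 146 after withdrawal and 79.9 and 164.1 with doxycycline. All these genes share the same 6 arrays and their scaling with the member they were matched to.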

How the data were processed

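Each of 6 mouse fibroblast RNA samples was hybridised to 1 Affymetrix array as biotin-labelled cRNA, per the labels' protocols. The authors deposited intensity values that their processing notes name as MAS5 signals, with no version or settings given in the sources used here. Arrays had the same trimmed mean (150.09 to 150.1, 2% left out at each end), so the values were on a common scale as deposited. Probe sets were named through the platform annotation, and no symbol needed an update through its Entrez identifier. Each array was rescaled by 0.999968 to 1.00006, and log2(signal + 32) was tested with limma 3.58.1 in R 4.3.3, with 1 mean per group over 6 arrays, an intensity trend and 3 residual degrees of freedom. The lowest 40% and 66 controls were left out, leaving 7453 probe sets. P-values are two-sided and Benjamini-Hochberg adjusted. The fit was tested on simulated data. Alternatives were the pseudocount, normalization, dim-signal filter, intensity trend, replicate block and each array left out. By the labels, a replicate number marks a shared extraction method. The main fit did not use it. Deviations of same-numbered arrays correlated at 0.449 (estradiol and withdrawal), -0.03 (estradiol and doxycycline) and -0.01 (withdrawal and doxycycline). The first involves the near-alike arrays labelled estradiol replicate 1 and withdrawal replicate 1. Named genes were all members, up to 3 genes of each list per comparison with the smallest unadjusted p, and the 3 nearest genes of a member. Members and lists were chosen with earlier results of these data known. The number of arrays limits the precision.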

Additional observations from a re-analysis of the deposited data

How the results depend on the processing

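Limma passed 0 probe sets in each comparison under another pseudocount (8 or 64), quantile normalization, no filter or a stricter filter (60% left out), no intensity trend, and with the replicate number as a block. At an unadjusted p under 0.05 the block gave 1219 for estradiol against doxycycline, 64 for estradiol against withdrawal and 435 for withdrawal against doxycycline. It changed no call of a member. Leaving out 1 array gave 0 to 133 passing probe sets for estradiol against doxycycline, 0 to 17 for estradiol against withdrawal and 0 to 26 for withdrawal against doxycycline. The highest counts came from leaving out a withdrawal array for estradiol against doxycycline (131 for replicate 1 and 133 for replicate 2), withdrawal replicate 1 for estradiol against withdrawal (17) and doxycycline replicate 1 for withdrawal against doxycycline (26). Leaving out the last of these gave 28 for estradiol against doxycycline. The fit on the estradiol and doxycycline arrays alone, chosen after seeing the data, passed 132, where the gap between the withdrawal arrays is no part of the spread. The fits without 1 withdrawal array take their spread from the same arrays, so they add no separate result for estradiol against doxycycline. The first Sox4 probe set, for estradiol against doxycycline, was the sole member to pass anywhere. It did so only where the gap between the withdrawal arrays was no part of the spread.

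The stricter filter removes Tgfbr1 and Smad7 from the test. Among tested comparisons of members, signs turned only when 1 array was left out. For estradiol against doxycycline the ranges were -0.79 to 0.99 for Tgfb1, -0.11 to 0.30 for Tgfbr1 and -1.27 to 0.015 for Ccn2. For estradiol against withdrawal they were -1.02 to 0.77 for Tgfb1, -0.18 to 0.13 for Tgfbr1, -0.23 to 0.32 for Tgfbr3 and -0.97 to 0.24 for Ccn2. For withdrawal against doxycycline they were -0.23 to 0.68 for Tgfb1, -0.43 to 0.031 for Tgfb3, -0.087 to 0.33 for Tgfbr1, -0.91 to 0.38 for Ccn2 and -0.35 to 0.049 for Smad7. The cause was not tested. Dim signals kept Tgfb2, Tgfbr2 and the dimmer Tgfb3 probe set out of the test.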
